A study of Mus musculus with 13 samples.

Results

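The cytosolic ribosomal protein genes encode the proteins of the large and the small ribosomal subunit, and were taken from the expression matrix by name: rows starting with Rpl or Rps followed by a digit, plus Rplp0, Rplp1, Rplp2 and Rpsa, without the S6 kinases and without names marked as pseudogenes. The rule gave 86 genes of the 32285 in the matrix, 52 with large-subunit and 34 with small-subunit names, on 19 chromosomes. Of these, 77 are called core genes here (46 large, 31 small), and the other 9 are paralogs or other genes by name, such as Rpl22l1, Rps27l and Rps19bp1. At least 100 UMI (unique molecules counted) were found for 83 of the 86, among them all 77 core genes, which ranged over all cells from 11120 UMI for Rpl4 to 66026 UMI for Rps29.

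A ribosome holds 1 copy of nearly every one of these proteins, so their transcripts are made in step with each other and with ribosomal RNA. In mammals most of these transcripts begin with a C and a run of pyrimidines, the terminal oligopyrimidine tract, through which the mTORC1 kinase complex and the RNA-binding protein Larp1 adjust their translation. In the intestine the dividing cells of the crypt base and the transit-amplifying zone build ribosomes for growth, and colonocytes and goblet cells leave the cycle as they move up the crypt wall.

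The cells were colon epithelium from C57BL/6J mice, from whole colons, of germ-free animals, raised without microbes, and of wild-type animals given antibiotics. After dissociation with EDTA and Dispase II the cells of a condition were pooled and sorted, EPCAM-positive and CD45-negative, with CD44-positive (proliferative) and CD44-negative (differentiated) cells taken in equal numbers, and sequenced with a droplet 3′ kit. Germ-free cells came from 2 and antibiotic cells from 3 cDNA libraries, each condition in its own batch, and the labels give neither ages, nor the number of animals, nor the antibiotics. Each condition is thus 1 pool: condition, batch, sorted pool and any difference in how the batches were counted cannot be told apart, and the values that follow are described without tests.

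The germ-free pool held 768 cells with 3100880 UMI and the antibiotic pool 3415 cells with 36530277 UMI. Cell names carry a number, and the resulting 5 cell sets (germ-free 3 and 4, antibiotic 1, 2 and 3) are used only to show spread, because the germ-free numbers match no library title. Median UMI per cell were 1045 and 4682 in the germ-free sets, and between 6599 and 7420 in the antibiotic sets. Of the barcodes, 810 occurred in more than 1 antibiotic set, which were therefore not independent of each other, and 0 were shared between the germ-free sets or between conditions. The 837 shallower copies had a median of 9.36% of the UMI of the deepest copy and went with them in ribosomal protein share (Pearson r = 0.99 over 810 pairs, median share 2.20% in the second and 2.03% in the deepest copy); the shallower copies held 3.40% of antibiotic UMI, and results with and without them are given where they bear on a value. Mitochondrial genes took 18.7% of germ-free and 12.4% of antibiotic UMI. The 6 immune markers summed to at most 1.02 CPM (UMI scaled to a common total per group) in any cell set, and Cd3e, Cd3g, Lyz2, Cd79a and C1qa were at 0 in germ-free cells. Stromal markers summed to 2.97 to 4.96 CPM, nearly all of it Pecam1.

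Ribosomal protein transcripts took a larger share of all UMI in germ-free than in antibiotic cells. The share was 7.36% in the germ-free pool (7.37% and 7.36% in its cell sets) and 5.44% in the antibiotic pool (4.67%, 6.51% and 5.02%), a ratio of 1.35, or 0.44 on the log2 scale. Both germ-free sets lay above all 3 antibiotic sets. The exact 95% binomial intervals were 7.33% to 7.39% and 5.43% to 5.45%, and like every interval here they cover counting error only. Without the shallower copies the antibiotic share was 5.38%. The log2 ratio was 0.54 with mitochondrial genes left out of the total and 0.35 without Gm42418, AY036118 and Lars2. It was 0.70 with cells of at least 1000 UMI thinned to 1000 UMI, which left out 143 germ-free and 524 antibiotic cells. It was 0.18 when the 4 cell classes described further on were given equal weight in both pools.

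The conditions were further apart in single cells than in the sums. The median cell gave 4.59% and 4.62% of its UMI to ribosomal proteins in germ-free sets 3 and 4, against 1.67%, 2.10% and 1.93% in antibiotic sets 1, 2 and 3. The middle of the distribution ran from 3.01% to 7.61% (quartiles) in germ-free cells and from 0.998% to 3.86% in antibiotic cells. Cells under 1% were 4 of 768 in the germ-free pool (0.521%) and 860 of 3415 in the antibiotic pool (25.2%). At the other end the difference was smaller. Cells with 10% or more were 114 germ-free (14.8%, exact interval 12.4% to 17.6%) and 332 antibiotic (9.72%, 8.75% to 10.8%), with shallower copies counted as separate cells. The highest single cells reached 25.6% in germ-free and 39.4% in antibiotic cells. Antibiotic ribosomal protein UMI were thus concentrated in fewer cells. The 10% of cells with the highest share held 37.3% of ribosomal protein UMI and 17.0% of all UMI in the germ-free pool, against 57.6% and 17.6% in the antibiotic pool. The curves of the share per cell show this crossing.

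**Figure D1:**
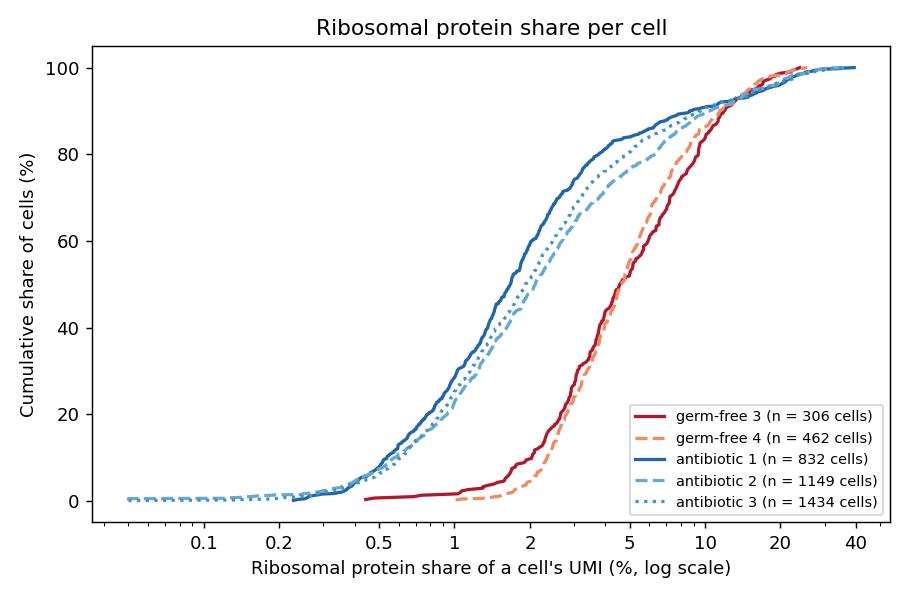
Cumulative share of cells (%) against the ribosomal protein share of a cell's UMI (%, log scale), 1 line per cell set; 7 cells below 0.05% are drawn at 0.05%. The germ-free lines lie to the right of the antibiotic lines over most of the range, with medians of 4.59% and 4.62% against 1.67%, 2.10% and 1.93%, and the lines meet among the cells with the highest shares.

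Within a condition the ribosomal protein share went with other measures of a cell, given here as Spearman's rho across cells of 1 pool, which share a library and are not replicates. It was highest with the summed share of 17 other translation genes (elongation and initiation factors and partners such as Eef1a1, Tpt1 and Rack1), at 0.84 over 768 germ-free and 0.89 over 3415 antibiotic cells. With 20 ribosome biogenesis genes, which make and assemble ribosomal RNA, it was 0.32 in germ-free and 0.28 in antibiotic cells. It was -0.52 and -0.49 with the mitochondrial share, and -0.37 and -0.40 when ribosomal proteins were taken as a share of non-mitochondrial UMI. The nuclear RNA Malat1 gave -0.49 in germ-free and -0.33 in antibiotic cells. In cells with 10% or more ribosomal protein UMI the median mitochondrial share was 10.9% in germ-free and 5.84% in antibiotic cells. In cells under 1% it was 27.3% in the 4 germ-free and 18.3% in the 860 antibiotic cells, whose median depth was 7616.5 UMI, above the 6993 UMI of all antibiotic cells.

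To place the genes along the crypt, each cell was scored on fixed markers of crypt base, cycling progenitor, goblet and colonocyte cells, with ribosomal protein and mitochondrial genes left out of the scores, and took the class with the highest z-score if that was 0.5 or more. Crypt-gated cells numbered 99 germ-free and 503 antibiotic, progenitor-gated cells 79 and 286, goblet-gated cells 128 and 268, and colonocyte-gated cells 191 and 1163; 271 germ-free and 1195 antibiotic cells stayed ungated. A gate is a range of a score and not a cell type, and between 18.7% and 26.3% of the cells of each gate lay within 0.25 of its limit. The markers define the gates, so a high level in their own gate follows from the scoring and does not test it. Not all were highest there: the crypt marker Slc12a2 was at 334 CPM in crypt-gated and 364 CPM in goblet-gated antibiotic cells. Lgr5, the crypt base stem cell receptor, was at 78.7 CPM in germ-free and 45.9 CPM in antibiotic crypt-gated cells, against 0 and 1.23 CPM in colonocyte-gated cells. Mki67, a marker of cycling, was at 471 CPM in germ-free and 645 CPM in antibiotic progenitor-gated cells, against 13.4 and 5.54 CPM in colonocyte-gated cells.

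The ribosomal protein share was higher in crypt-, progenitor- and goblet-gated cells than in colonocyte-gated cells, in both conditions and in every cell set. In germ-free cells it was 9.22% in crypt-gated, 9.89% in progenitor-gated and 7.33% in goblet-gated cells, against 5.21% in colonocyte-gated cells. In antibiotic cells it was 6.66%, 10.6% and 6.96% in these 3 gates, against 3.61% in colonocyte-gated cells. Crypt-gated over colonocyte-gated, the log2 ratio was 0.82 in germ-free cells (0.97 and 0.80 in the sets) and 0.88 in antibiotic cells (0.78, 0.87 and 0.94). Progenitor-gated over colonocyte-gated it was 0.93 in germ-free cells (0.96 and 0.92) and 1.56 in antibiotic cells. The antibiotic sets differed there, with 0.90 in set 1 against 1.66 and 1.74 in sets 2 and 3, whose progenitor-gated cells had 13.1% and 10.8% ribosomal protein UMI against 6.82% in set 1. Goblet-gated over colonocyte-gated it was 0.49 in germ-free cells (0.35 and 0.51) and 0.95 in antibiotic cells (1.07, 0.93 and 0.88).

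These ratios depend on how cells are weighted, most of all in antibiotic cells. By the median cell the share was 7.19% in germ-free crypt-gated, 5.96% in progenitor-gated and 4.32% in goblet-gated cells, against 3.55% in colonocyte-gated cells. In antibiotic cells the medians were 2.09%, 2.48% and 1.71%, against 1.68% in colonocyte-gated cells. The log2 ratios over colonocyte-gated cells then became 0.32 for crypt-gated, 0.56 for progenitor-gated and 0.025 for goblet-gated antibiotic cells, so goblet-gated antibiotic cells were higher in summed UMI and level with colonocyte-gated cells in the median cell. Colonocyte-gated cells were also the deepest, with a median of 4231 UMI in germ-free and 11892 UMI in antibiotic cells. With cells of at least 1000 UMI thinned to 1000 UMI the antibiotic ratio was 0.44 for crypt-gated and 0.49 for goblet-gated cells.

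**Figure D2:**
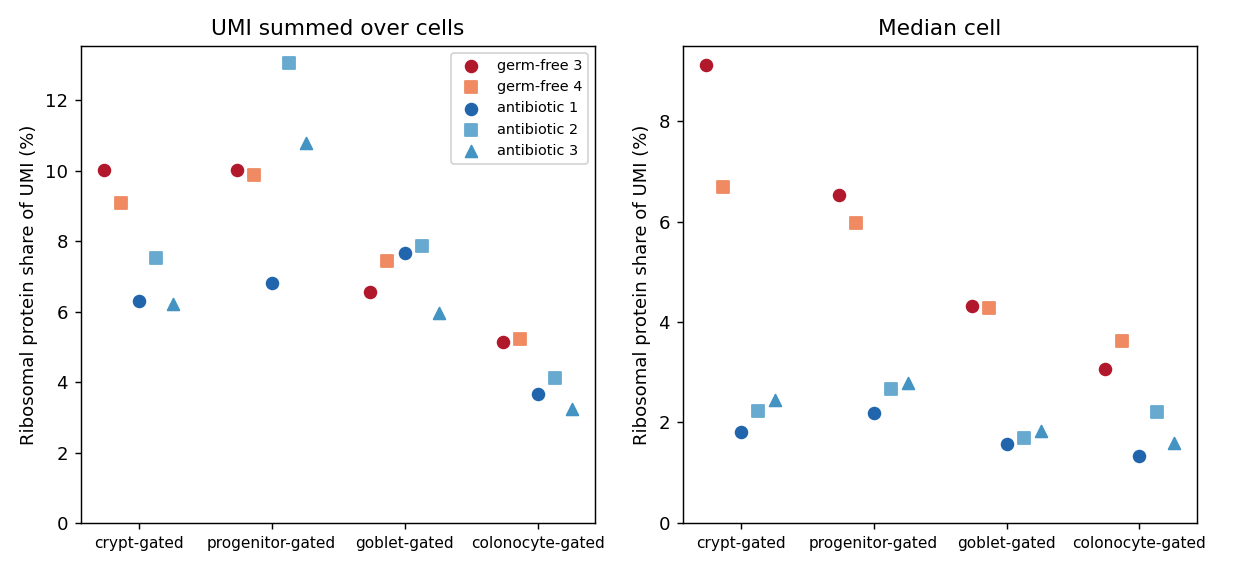
Ribosomal protein share of UMI (%) in the 4 gates, 1 point per cell set, from UMI summed over cells (left) and from the median cell (right). Summed shares were lowest in colonocyte-gated cells in every set, and in antibiotic cells the medians of all gates lay between 1.34% and 2.78%.

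The difference between the conditions depended on the gate and on how cells were weighted. Germ-free over antibiotic, the log2 ratio of the summed share was 0.47 in crypt-gated and 0.53 in colonocyte-gated cells, where both germ-free sets lay above all antibiotic sets. It was 0.08 in goblet-gated and -0.10 in progenitor-gated cells, where the sets overlapped. In progenitor-gated cells it was 0.11 without antibiotic set 2. By the median cell the germ-free sets lay above all antibiotic sets in every gate, with log2 ratios of 1.78 in crypt-gated, 1.27 in progenitor-gated, 1.34 in goblet-gated and 1.08 in colonocyte-gated cells. By the mean cell the ratio was 0.37 in progenitor-gated and 0.46 in goblet-gated cells. Whether the gates differ was not tested. The mitochondrial share was higher in germ-free cells in each gate, at 20.1% against 12.4% in crypt-gated, 17.9% against 10.3% in progenitor-gated, 15.5% against 10.3% in goblet-gated and 19.3% against 11.8% in colonocyte-gated cells. With mitochondrial genes left out of the total the log2 ratio of the summed share was 0.60 in crypt-gated, 0.026 in progenitor-gated, 0.16 in goblet-gated and 0.66 in colonocyte-gated cells.

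Gene by gene, the class difference ran through the whole set. A gene was counted as higher when its CPM + 1 was at least 1.5 times that of the other group, with at least 100 UMI in the cells compared. Between crypt-gated and colonocyte-gated cells 65 of 77 core genes were higher in germ-free cells, where 20% of 2371 genes were, and 63 of 77 in antibiotic cells, where 42.2% of 9675 genes were. All 77 core genes were higher in every cell set of their condition, against 33.6% of genes in germ-free and 54.7% in antibiotic cells, and 0 were 1.5-fold lower, where 28.6% of genes in germ-free and 19.1% in antibiotic cells were. The median log2 ratio of the core genes was 0.87 in germ-free cells, beside -0.12 over all genes tested, and 0.92 in antibiotic cells, beside 0.40. With median-of-ratios scaling, which sets that general shift aside, 33 of the 83 members measured were higher in antibiotic crypt-gated cells and 2 lower. The share of all genes was not counted under that scaling. Between progenitor-gated and colonocyte-gated cells 69 of 77 were higher in germ-free (21% of genes) and 77 of 77 in antibiotic cells (40.9% of genes; 18.2% were lower), with median log2 ratios of 0.97 and 1.61. Without germ-free set 4, 28 members were higher in progenitor-gated cells. Set 3 alone held 4001 ribosomal protein UMI in the progenitor gate and 3863 in the colonocyte gate, so fewer members reached 100 UMI. That count therefore cannot be set beside 69 of 77. Goblet-gated cells had 26 of 77 higher in germ-free cells (17% of genes) and 68 of 77 in antibiotic cells (34.1% of genes), with medians of 0.48 and 0.96.

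Rpl12, a large-subunit protein at the stalk base where elongation factors bind, had the largest differences between gates in antibiotic cells. In germ-free cells it was at 1021 CPM in crypt-gated, 1167 CPM in progenitor-gated and 831 CPM in goblet-gated cells, against 423 CPM in colonocyte-gated cells. In antibiotic cells it was at 489, 695 and 439 CPM in these gates, against 110 CPM in colonocyte-gated cells. The log2 ratio of crypt-gated over colonocyte-gated cells was 1.27 in germ-free and 2.14 in antibiotic cells. Rps29, a small-subunit zinc-finger protein, was at the other end among antibiotic core genes. It had 1700.4 CPM in crypt-gated against 1246 CPM in colonocyte-gated germ-free cells, and 1594 against 1414 CPM in antibiotic cells, with log2 ratios of 0.45 and 0.17.

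Such differences are easier to see as each gene's share of ribosomal protein UMI, which does not move when all members move together. Most of the 77 core shares differed little between gates: crypt-gated over colonocyte-gated, 64 lay within 1.25-fold in germ-free cells (6 above, 7 below) and 46 in antibiotic cells (17 above, 14 below). Rpl12 had 1.06% and 1.12% of ribosomal protein UMI in crypt-gated cells of germ-free sets 3 and 4, against 1.09% and 0.789% in colonocyte-gated cells. In antibiotic sets 1, 2 and 3 it had 0.753%, 0.738% and 0.721% in crypt-gated cells, against 0.366%, 0.301% and 0.278% in colonocyte-gated cells. The difference was present in every antibiotic set and absent from the shallow germ-free set 3. Rpl3, which lines the peptidyl transferase centre, had 0.405% and 0.776% in crypt-gated against 0.337% and 0.548% in colonocyte-gated cells of the germ-free sets. In the antibiotic sets Rpl3 had 0.873%, 0.799% and 0.858% in crypt-gated against 0.466%, 0.417% and 0.400% in colonocyte-gated cells. It was higher in crypt-gated cells in all 5 sets.

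Next in the ranking of antibiotic crypt-gated over colonocyte-gated shares came Rpsa, also known as the laminin receptor, with a log2 ratio of 0.45 in germ-free and 0.72 in antibiotic cells. Rps6, the protein phosphorylated by S6 kinases, followed with 0.44 and 0.64, then Rps19, mutated in human Diamond-Blackfan anaemia, with 0.45 and 0.59, and Rpl10a with 0.27 and 0.48. At the low end of the core genes stood Rps29 (-0.37 in germ-free and -0.71 in antibiotic cells), Rpl41 (-0.53 and -0.61) and Rpl7a (-0.49 and -0.55). Rps29 had 1.69% and 1.87% of ribosomal protein UMI in crypt-gated against 2.23% and 2.41% in colonocyte-gated cells of the germ-free sets. In the antibiotic sets Rps29 had 2.52%, 2.39% and 2.33% in crypt-gated against 3.84%, 3.87% and 4.0% in colonocyte-gated cells, so the gates did not overlap in either condition.

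The order of the genes was much alike in the 2 conditions, which share no cells. Across the 77 core genes, which are not independent replicates, the germ-free and antibiotic log2 ratios of crypt-gated over colonocyte-gated shares had Pearson r = 0.85 and Spearman's rho = 0.82, and 61 had the same sign. In all 5 cell sets 22 genes were higher and 18 lower in crypt-gated cells. The same comparison gave r = 0.82 for progenitor-gated and r = 0.75 for goblet-gated over colonocyte-gated cells. In antibiotic cells small-subunit genes had a median log2 ratio of 0.18 and large-subunit genes of -0.05, while in germ-free cells both medians were near 0 (0.04 and 0.06).

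**Figure D3:**
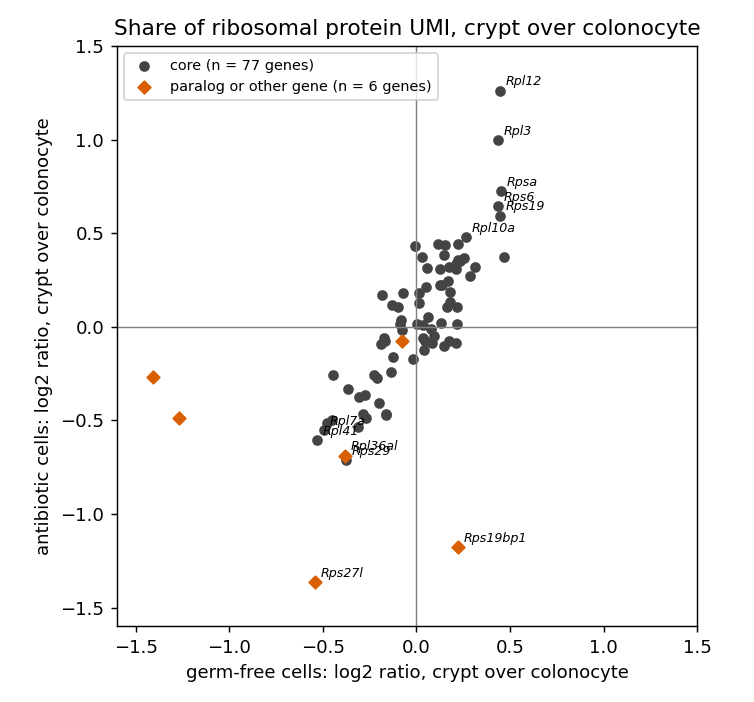
Log2 ratio of each gene's share of ribosomal protein UMI, crypt-gated over colonocyte-gated cells, in germ-free cells (horizontal) and antibiotic cells (vertical), 1 point per gene (77 core genes, 6 paralogs or other genes). Core genes lie along a line through 0, from Rpl41 at -0.53 and -0.61 to Rpl12 at 0.45 and 1.26, while Rps27l and Rps19bp1 are the lowest in antibiotic cells.

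Levels of single members are given in CPM and without division by length, because a 3′ kit counts 1 end per molecule. The core genes lay between 273 CPM (Rpl35) and 1849 CPM (Rpl23) in germ-free cells, with a median of 903 CPM, and between 266 CPM (Rpl4) and 1681 CPM (Rps29) in antibiotic cells, with a median of 654 CPM. Rps29, Rpl41, Rps24, Rps28, Rpl37, Rplp1 and Rpl23 were among the 8 most abundant over all cells. Rpl23, a large-subunit protein that also binds Mdm2, had 2174 and 1800.3 CPM in the germ-free sets, against 950.0, 1257 and 960.1 CPM in the antibiotic sets. Rplp1, an acidic protein of the stalk, had 1325 and 1632 CPM in the germ-free sets, against 917, 1279 and 1013 CPM in the antibiotic sets. Rps24, another small-subunit protein whose gene is mutated in human Diamond-Blackfan anaemia, had 1806 and 1619 CPM, against 1068, 1512 and 1136 CPM. The groups did not overlap for Rpl23, Rplp1 or Rps24, and over all genes 24.8% had both germ-free sets above all antibiotic sets. Rpl41 and Rps28 had lower shares of ribosomal protein UMI in germ-free cells and are described further on. The sets overlapped for Rps29 (1489.9 CPM in germ-free, 1681 CPM in antibiotic cells) and Rpl37 (1089 and 1257 CPM). Large-subunit genes held 57.2% of ribosomal protein UMI in germ-free and 57.7% in antibiotic cells.

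Between the conditions the members did not move as 1 block. Of the 77 core genes 34 were at least 1.5-fold higher in germ-free cells and 1, Rpl35, lower, where 7.65% and 8.39% of 11059 genes were. Cell sets stood apart, with both germ-free sets above all antibiotic sets, for 43 core genes and the other way round for 5, against 24.8% and 23.9% of all genes. The median log2 ratio was 0.55, beside 0.03 over all genes, and the range ran from -0.68 (Rpl35) to 1.40 (Rpl12). In cells with at least 1000 UMI and at most 15% mitochondrial UMI 53 of the 83 members measured were higher and 0 lower, where all cells gave 35 and 1. These limits kept 199 of 768 germ-free and 1751 of 3415 antibiotic cells, in which the ribosomal protein share was 10.7% and 6.97%. With equal weight for the 4 gates 17 members were higher and 5 lower. In colonocyte-gated cells 48 core genes were higher and 0 lower (10.7% and 12.1% of genes), with a median of 0.71, and in crypt-gated cells 33 and 1 (9.74% and 18.9% of genes), with a median of 0.55. In progenitor-gated cells 4 were higher and 12 lower (7.81% and 16.4% of genes), and in goblet-gated cells 13 and 8 (8.81% and 13.7% of genes). These last counts turned round under other settings. Of all members measured, 16 were higher and 7 lower in progenitor-gated cells with at least 1000 UMI and at most 15% mitochondrial UMI. In goblet-gated cells 6 were higher and 15 lower with the stricter gate (z-score of 1 or more and 0.5 above the next). The share of all genes was counted only under the main setting, so whether the members or genes in general moved under the others was not tested.

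As shares of ribosomal protein UMI, 39 core genes lay within 1.25-fold between the conditions, 21 were higher in germ-free and 17 lower, with log2 ratios from -1.11 to 0.96. Both germ-free sets lay above all antibiotic sets for 31 of the 77 genes and below them for 20. By CPM, which is another measure, 24.8% of all genes lay above and 23.9% below in this way. Without the shallower copies of shared barcodes the counts were the same, 39, 21 and 17. Rpl12 had 1.11% and 0.989% in the germ-free sets, against 0.572%, 0.513% and 0.492% in the antibiotic sets. It was higher in both germ-free sets, with a log2 ratio of 0.96. Rpl5, which carries 5S ribosomal RNA into the large subunit, had a log2 ratio of 0.70, Rpl23a at the exit of the peptide tunnel with 0.69, Rps6 with 0.67 and Rpl26 with 0.62.

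At the other end 6 genes had log2 ratios of -0.84 or lower in germ-free cells. Rpl35 had 0.202% and 0.397% in the germ-free sets, against 0.646%, 0.846% and 0.834% in the antibiotic sets, a log2 ratio of -1.11. Rps28 had 1.05% and 1.18%, against 2.17%, 2.40% and 2.40% (-1.02). Rpl41, whose product is the shortest ribosomal protein, had 0.984% and 1.60%, against 2.98%, 3.05% and 2.95% (-0.98). For each of them the groups did not overlap, but these genes were chosen by this same ratio, so that is no separate result. Over the 77 core genes both germ-free sets lay below all antibiotic sets for 20. Rpl38, a gene that mice need for normal patterning of the axial skeleton, had a log2 ratio of -0.96, Rpl36 of -0.87 and Rps27 of -0.84. The difference was present in every gate: Rpl35 had -1.13 in crypt-gated, -1.17 in progenitor-gated, -1.03 in goblet-gated and -1.05 in colonocyte-gated cells, and Rpl41 had -0.99, -0.82, -0.91 and -1.07. The size depended on the germ-free set, since without set 4 Rpl35 had -1.99 and Rpl41 -1.61.

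**Figure D4:**
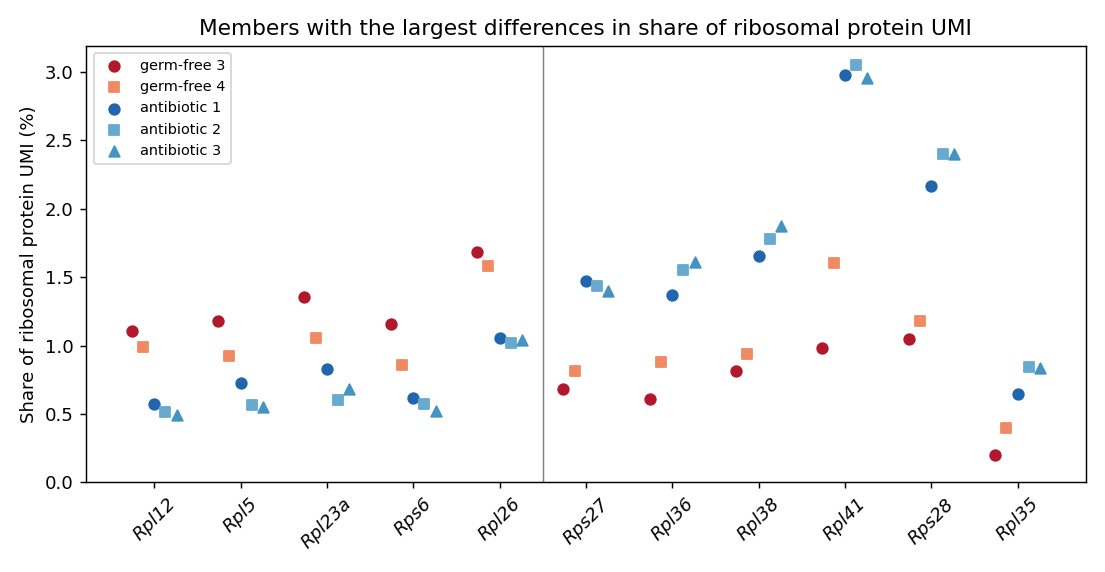
Share of ribosomal protein UMI (%) of 5 of the 6 core genes with the highest (left of the line) and the 6 with the lowest log2 ratio, germ-free over antibiotic, 1 point per cell set. The germ-free and antibiotic points of each gene do not overlap, for example 0.984% and 1.60% against 2.98%, 3.05% and 2.95% for Rpl41. The genes were chosen by this ratio, so the lack of overlap is no separate result.

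The promoters of members on both sides are shown because their shares differed in opposite directions. Each stretch runs from 40 bases before to 20 bases from the RefSeq start on the gene's strand (GRCm38.p6), and capitals mark the longest run of C or T, where the pyrimidine tract of such genes is found. The first 5 had lower and the next 2 higher shares in germ-free cells, and Rpl7a, with a lower share in crypt-gated cells in both conditions, has the longest run of the members shown.
Rpl35 (chr2:39005112-39005171, minus strand): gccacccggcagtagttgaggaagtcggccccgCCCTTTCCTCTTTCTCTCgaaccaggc
Rps28 (chr17:33824543-33824602, minus strand): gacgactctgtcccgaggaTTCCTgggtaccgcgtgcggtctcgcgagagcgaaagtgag
Rpl41 (chr10:128549149-128549208, minus strand): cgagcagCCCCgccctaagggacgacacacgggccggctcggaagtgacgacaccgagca
Rpl38 (chr11:114668540-114668599, plus strand): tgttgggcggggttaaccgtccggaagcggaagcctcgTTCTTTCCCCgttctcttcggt
Rps27 (chr3:90213629-90213688, minus strand): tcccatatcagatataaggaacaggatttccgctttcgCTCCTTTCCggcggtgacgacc
Rpl12 (chr2:32961672-32961731, plus strand): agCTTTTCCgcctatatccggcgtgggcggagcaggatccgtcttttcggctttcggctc
Rps6 (chr4:86857348-86857407, minus strand): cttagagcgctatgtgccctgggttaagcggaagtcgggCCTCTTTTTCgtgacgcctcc
Rpl7a (chr2:26910767-26910826, plus strand): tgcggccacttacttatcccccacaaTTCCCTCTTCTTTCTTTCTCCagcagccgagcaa
The longest run was 18 bases in Rpl35, 10 in Rpl38, 9 in Rps27 and 10 in Rps6, each across or next to the start base, but 4 in Rpl41 and 5 in Rps28, where it lay away from the start. Rpl12 has 2 runs of 7, of which the first is in capitals and the other begins 1 base after the start base. Of the genes with higher shares that are not shown, Rpl5 had a longest run of 9 bases and Rpl26 of 5. Among these genes long and short runs thus stood on both sides.

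Of the 77 core genes 57 were found in the RefSeq promoter table, which holds 27025 genes with 250 bases before to 50 after the start. A run of at least 8 C or T within 30 bases of the start was present in 32 of the 57 (56.1%, against 25.8% of all genes). A C at the annotated start base followed by at least 4 C or T was present in 13 (22.8%, against 3.01%). The motif CCGGAAG on either strand, the core letters of ETS-family sites, was present in 24 (42.1%, against 9.93%), and TATAAA on the gene's strand in 5 (8.77%, against 9.77%). A match is a description of these letters and not a binding site.

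The genes with lower shares in germ-free cells were mostly the short ones. Rpl41 has a coding length of 75 bases, Rps28 of 207, Rpl38 of 210, Rps27 of 252, Rpl36 of 315 and Rpl35 of 369, whereas Rps6 has 747 and Rpl5 has 891 (GENCODE vM21, without the stop codon). Over the 77 core genes coding length and the log2 ratio of the share, germ-free over antibiotic, had Pearson r = 0.45 and Spearman's rho = 0.29. For the length of the whole transcript r was 0.23 and rho 0.15, and for its percentage of G and C both were -0.27. The 25 shortest (75 to 399 bases) together held 33.5% and 31.3% of ribosomal protein UMI in the germ-free sets, against 38.8%, 39.3% and 39.3% in the antibiotic sets. The groups did not overlap, and 17 of these 25 genes had a lower share of ribosomal protein UMI in germ-free cells. The 26 of middle length (405 to 564 bases) held 36.2% in germ-free and 30.1% in antibiotic cells, and the 26 longest (576 to 1257 bases) 30.7% and 29.3%. Among 10373 other genes coding length and the log2 ratio of CPM had rho = -0.04. The 541 as short as the 25 shortest ribosomal protein genes had a median log2 ratio of CPM of 0.07. These are ratios of CPM and cannot be set directly against ratios of shares. By CPM the median log2 ratio of the core genes was 0.55, so a lower share need not be a lower CPM.

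**Figure D5:**
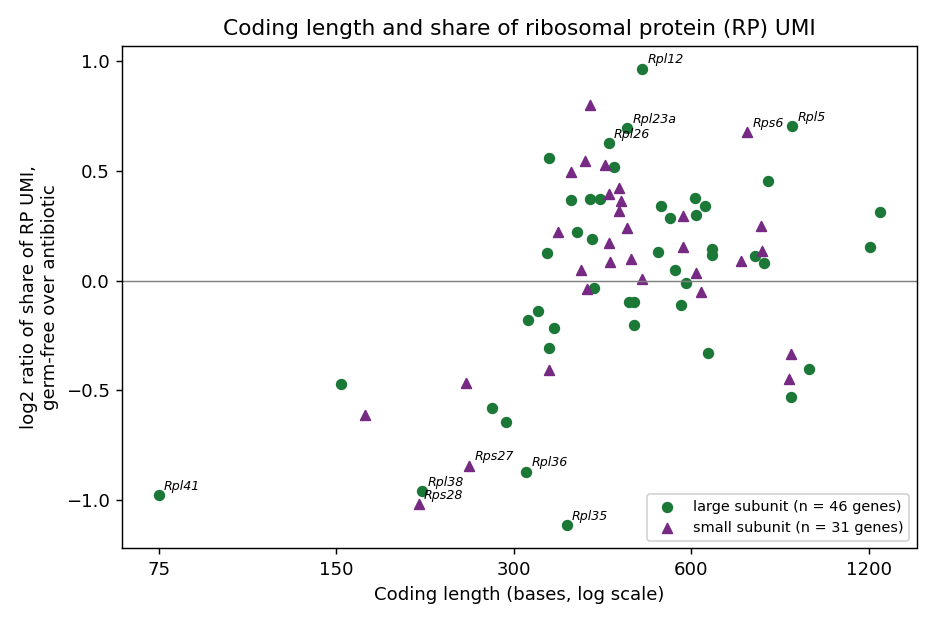
Log2 ratio of the share of ribosomal protein UMI, germ-free over antibiotic cells, against coding length (bases, log scale), 1 point per core gene (46 large-subunit, 31 small-subunit). The 6 genes with the lowest ratios, from Rpl41 to Rpl35, have coding lengths of 75 to 369 bases, and Rpl12 at 495 bases is the highest.

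Ribosomal protein genes have many processed copies in the genome, and the sources used here do not say how reads that fit several genes were counted. Of the 77 core genes 60 shared at least one 50-base word of their last 300 transcript bases with another annotated gene, 46 shared at least 50% of these words, and the median gene shared 62.5% of them and shared with 7 genes. The counts of such genes are uncertain to that extent. Of the genes with the lowest shares in germ-free cells, Rps27 shared 100%, Rpl35 96.0%, Rpl36 89.2%, Rps28 68.5%, Rpl38 65.3% and Rpl41 62.9%. Of those with the highest shares, Rpl12 and Rpl5 shared 0%, but Rps6 shared 83.3%, Rpl23a 80.9% and Rpl26 64.1%. Across the 77 genes this percentage and the log2 ratio of the share had a rho of -0.03.

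The level of each core gene across the 5 cell sets and 4 gates (20 values, log2 of CPM) was compared with that of all other members summed, paralogs included. The median Pearson r was 0.91 and the highest 0.98 (Rpl21), with the lowest values for Rpl41 (0.38), Rps27 (0.38), Rpl35 (0.49), Rpl38 (0.60) and Rpl36 (0.61). These points share libraries and depth, and the 5 genes are among those chosen by their difference between the conditions.

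The paralogs and other genes by name did not all follow the core. Rps27l, a paralog of Rps27 known as a target of p53, was at 329 CPM in crypt-gated and 271 CPM in colonocyte-gated germ-free cells, and at 150 CPM in crypt-gated and 209 CPM in colonocyte-gated antibiotic cells, the reverse of the core genes there. Its share of ribosomal protein UMI had a log2 ratio, crypt-gated over colonocyte-gated, of -0.54 in germ-free and -1.36 in antibiotic cells, and it was lower in all 5 sets. Rpl36al, a paralog of Rpl36a, had -0.38 and -0.69. Rpl22l1, a paralog of Rpl22, was at 271 CPM in germ-free and 195 CPM in antibiotic cells and differed between gates much as the core did, with log2 ratios of its CPM, crypt-gated over colonocyte-gated, of 0.74 and 0.81. Rps19bp1, a nucleolar partner of Rps19 and of the deacetylase Sirt1, was at 19.7 CPM in germ-free and 14.0 CPM in antibiotic cells, Rpl7l1 at 24.5 and 24.8 CPM, and Rps27rt, a retrogene of Rps27, at 38.4 and 25.3 CPM. Rpl10l and Rpl39l, paralogs known from male germ cells, and Rpl3l, known from striated muscle, had 0, 1 and 2 UMI in all 4183 cells. Rps4x, the X-linked core gene that the naming rule also lists, was at 1025 CPM in germ-free and 639 CPM in antibiotic cells.

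Genes that work with the ribosomal proteins behaved unevenly. Of 17 translation partners 6 were at least 1.5-fold higher and 1 lower in germ-free cells (7.65% and 8.39% of all genes), with a median log2 ratio of 0.36. Tpt1, whose mRNA also starts with a pyrimidine tract, had 3628 and 2276 CPM in the germ-free sets, against 1298, 1523 and 1217 CPM in the antibiotic sets, and Eef1a1, the factor that brings aminoacyl-tRNA to the ribosome, had 3112 and 1887 CPM, against 1298, 1479 and 1183 CPM. Fau, which encodes a small-subunit protein fused to a ubiquitin-like one, was at 1577 CPM in germ-free and 1735 CPM in antibiotic cells. Between gates Fau went against the core: it had 1349.9 CPM in crypt-gated and 1754 CPM in colonocyte-gated germ-free cells, and 1183 and 2039 CPM in antibiotic cells.

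Most ribosome biogenesis genes were also higher in crypt-gated than in colonocyte-gated antibiotic cells. In antibiotic cells 16 of the 18 measured were at least 1.5-fold higher in crypt-gated than in colonocyte-gated cells and 0 lower (42.2% and 19.1% of all genes), with a median log2 ratio of 1.49 beside 0.40 over all genes. In progenitor-gated cells 16 of 17 were higher (40.9% of all genes), with a median of 2.00 beside 0.37. Ncl, the nucleolar protein nucleolin, was at 408 CPM in crypt-gated against 157 CPM in colonocyte-gated germ-free cells, and at 273 against 97.7 CPM in antibiotic cells. Fbl, the methyltransferase of ribosomal RNA, was at 64.8 CPM in crypt-gated and 10.9 CPM in colonocyte-gated antibiotic cells. In germ-free cells only 1 of these genes, Ncl, reached 100 UMI in both gates together. By condition 4 of 20 were 1.5-fold higher in germ-free cells and 0 lower (7.65% and 8.39% of all genes), with a median of 0.16. Of 13 regulators such as Myc, Mtor and Larp1, 2 (15.4%) were higher and 0 lower in germ-free cells, against the same 7.65% and 8.39%, and Larp1 was at 108 CPM in germ-free and 106 CPM in antibiotic cells.

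The proteins of the mitochondrial ribosome, encoded by 78 nuclear genes, give a second ribosome to set beside the cytosolic one. In antibiotic cells 13 (16.7%) were 1.5-fold higher and 19 (24.4%) lower in crypt-gated than in colonocyte-gated cells, where 42.2% and 19.1% of all genes were. Their median log2 ratio was -0.17, beside 0.92 for the cytosolic core genes and 0.40 over all genes. In progenitor-gated cells 28 (35.9%) were higher and 0 lower, where 40.9% and 18.2% of all genes were, with a median of 0.48 beside 1.61 for the core genes and 0.37 over all genes. By condition 11 (14.1%) were higher in germ-free cells and 0 lower, where 7.65% and 8.39% of all genes were, with a median of 0.24. The difference between the 2 lists was not tested.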

How the data were processed

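The deposited matrix holds natural log expression values that the authors had scaled per cell; the exponential minus 1 of a cell's values sums to 10000. Dividing by the smallest nonzero value gave whole UMI counts, within 0.01, for 100% of 9481333 nonzero values, and these recovered UMI were used in place of the deposited values. The submitters' processing notes name Cell Ranger 7.0.0, kallisto, bustools and mm10 without roles, and the sources used here give neither filters, strand nor the handling of multi-gene reads. The labels list 13 libraries; the 8 MULTI barcode libraries were not analysed here, and no doublet caller was run.

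All deposited cells were kept. UMI were summed per cell set, condition and gate, and log2 ratios were taken of CPM + 1, germ-free over antibiotic or gate over colonocyte-gated. Shares have exact 95% binomial intervals for counting error. Each condition being 1 pool, no count test was possible; the design's rule for 1 pool was used. Named are the 8 most abundant members, the 6 highest and 6 lowest by share of ribosomal protein UMI (at least 500 UMI) between conditions and between crypt-gated and colonocyte-gated antibiotic cells, the paralogs, and 4 genes of each other list; 3 of these genes are not reported here. Members, lists and limits were chosen with earlier results of these data known, and the alternatives without shallower copies, by the median cell and of the gate within conditions after seeing the data. Lengths are from GENCODE vM21 and promoters from RefSeq (GRCm38.p6). SciPy 1.17.1, pandas 2.3.3, NumPy 2.4.6 and matplotlib 3.10.9 were run under Python 3.11.15, and the contrast was tested on simulated counts.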

Additional observations from a re-analysis of the deposited data

Results flagged for a closer look

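For a few members the share of ribosomal protein UMI, a gate over colonocyte-gated cells, lay on one side of 0 in both germ-free sets and on the other in all 3 antibiotic sets. In none of these cases was the difference between the conditions tested, and most values are small. Of crypt-gated over colonocyte-gated cells, the log2 ratio of Rpl36 was 0.084 in germ-free (0.46 and 0.10 in sets 3 and 4) and -0.08 in antibiotic cells. That of Rps19bp1 was 0.22 in germ-free (1.38 and 0.04) and -1.18 in antibiotic cells, at 40.5 CPM or less in either pool. That of Rps24 was -0.070 in germ-free and 0.18 in antibiotic cells, and that of Rps4x was -0.10 and 0.10. Of progenitor-gated over colonocyte-gated cells, Rpl22l1 had 0.40 in germ-free (1.00 and 0.32) and -0.15 in antibiotic cells, Rpl36 had 0.047 and -0.10, and Rpl38 had 0.16 and -0.11. In the same gates Rps24 had -0.024 in germ-free and 0.15 in antibiotic cells. Of goblet-gated over colonocyte-gated cells, Rpl36 had 0.19 in germ-free and -0.07 in antibiotic cells.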

How the results depend on the processing

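Of the values under alternatives, 34 of 135 share ratios, 31 of 172 counts, 38 of 120 counts by condition within a gate and 8 of 148 single-gene values moved by more than the spread between cell sets or by over 1.5 times, and 11 more share ratios changed sign, all of them the condition ratio in progenitor-gated or goblet-gated cells. The causes were not tested. With 1 pool per condition, and no mouse-level replicates, depth limits most of all the germ-free gates, where set 3 had between 28 and 50 cells in each. No paired analysis was possible because the germ-free and antibiotic cell sets come from 1 pool each and their library numbers are not shared.

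The log2 ratio of the share between conditions became 0.70 with cells thinned to 1000 UMI and 1.28 by the median cell. Within gates it became, with the stricter cells described next, 0.83 (crypt), 0.12 (progenitor) and 0.81 (colonocyte); by the mean cell 1.07 (crypt), 0.37 (progenitor) and 0.46 (goblet); thinned 1.05, 0.36 and 0.54; and by the median cell 1.78, 1.27 and 1.34, with 1.08 for colonocyte. In progenitor-gated cells, -0.10 as reported, it was 0.026 without mitochondrial genes and 0.14 with the stricter gate, and -0.27 to 0.11 leaving out 1 cell set. In goblet-gated cells, 0.08 as reported, it was -0.21 with the stricter gate, -0.038 with gates by UMI, and -0.087 to 0.18 leaving out 1 cell set. Over colonocyte-gated germ-free cells, cells with at least 1000 UMI and at most 15% mitochondrial UMI gave 0.96 for crypt, 0.89 for progenitor and 0.29 for goblet, and the median cell gave 1.02, 0.75 and 0.28. Gates by UMI gave 0.46 for crypt and 1.00 for progenitor, and the stricter gate 0.98 for progenitor. In antibiotic cells the median cell gave 0.32 for crypt, 0.56 for progenitor and 0.025 for goblet. The mean cell gave 0.40 for crypt and 0.49 for goblet, the stricter gate 0.75 and 1.13, gates by UMI 0.54 and 1.17, and thinning 0.44 and 0.49. Leaving out 1 cell set gave 0.80 to 0.97 for crypt, 0.92 to 0.96 for progenitor and 0.35 to 0.51 for goblet in germ-free cells.

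Of the 83 members measured, those higher in germ-free cells were 53 in the stricter cells, 6 at a 2-fold limit and 17 with equal weight for the gates, where the main count was 35. Those lower were 0 in the stricter cells, without mitochondrial genes in the total and at 2-fold, 2 with median-of-ratios scaling, 4 without Gm42418, AY036118 and Lars2, 5 with equal weight, and 0 to 6 when 1 cell set was left out. A 2-fold limit over colonocyte-gated cells left 19 (crypt), 34 (progenitor) and 0 (goblet) in germ-free and 33 (crypt) and 35 (goblet) in antibiotic cells. Gates by UMI left 29 for crypt in germ-free and 39 higher with 1 lower in antibiotic cells; these gates held 12 germ-free and 62 antibiotic crypt cells. Median-of-ratios scaling gave 33 higher and 2 lower and the stricter gate 1 lower for crypt in antibiotic cells. The stricter cells left 7 for goblet in germ-free cells, and no filter on UMI gave 1 lower member in each germ-free gate. Leaving out 1 germ-free cell set gave 28 to 72 for progenitor and 8 to 33 for goblet.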
